A study of Mus musculus with 3 samples.

Results

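10 genes of the smooth muscle contractile programme were examined in the genital tubercle, the bud of the embryo from which the penis or clitoris develops. They were the actins Acta2 and Actg2, Tagln, the myosin heavy chain Myh11, Cnn1, Des, the kinase Mylk, Synpo2, Tpm2 and the coactivator Myocd. Every probe set whose platform annotation gave a single gene symbol, that symbol being one of these genes, was taken. This gave 23 of 45037 probe sets that are not controls, and 10 of 18193 genes with a symbol. No probe set named a member together with another gene.

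Smooth muscle shortens when Mylk, a calmodulin-dependent kinase, phosphorylates the light chains of Myh11, which then pulls on thin filaments of smooth muscle actin and tropomyosin. Many of these genes carry CArG boxes, at which the serum response factor Srf binds DNA, and Myocd and its relatives Mrtfa and Mrtfb are coactivators of Srf. During smooth muscle differentiation Acta2 is among the earliest contractile genes to appear, with Tagln and Cnn1 also counted as early to middle markers, while Myh11, Actg2, Smtn and Lmod1 mark more mature cells. Acta2 is also made by pericytes and myofibroblasts, and Mylk and Tpm2 are expressed in many cells besides smooth muscle.

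The samples were 3 genital tubercles of embryonic day 14, Theiler stage 22, each from an embryo whose label gives the sex as male. FVB/N females had been mated to males carrying the SMAA/EYFP transgene, a yellow fluorescent reporter named for Acta2, and the reporter's fluorescence guided the dissection. The promoter of the transgene is not given in the sources used here. All 3 samples thus share strain, transgene, stage and dissection, none was pooled, and there is no control group. They differ in 1 label, the limb landmark, which is indented footplate borders in replicates 1 and 2 and visible fingers in replicate 3. Nothing in the labels says whether the embryos came from separate litters, so any SD or SE below describes only these samples. Because the reporter guided the choice of tissue, the level of Acta2 cannot be taken as independent of how the samples were obtained.

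Each sample was hybridised to 1 array, and each value is a linear signal per probe set as deposited. Background was taken as the 95th percentile over 81 probe sets for receptors of smell, pheromones and bitter taste, genes of sensory epithelia, and stood at 136, 253 and 197 in replicates 1, 2 and 3. Replicate 1 had the lowest background. Its control probe sets for 18S rRNA were also the lowest, with 13600 at the 3′ end against 78800 and 60300 in replicates 2 and 3. Its Gapdh controls had a 3′ to 5′ signal ratio of 21.5 against 14.9 and 14.1. For the beta-actin controls that ratio was 7.38, 2.21 and 4.42 in replicates 1, 2 and 3, so replicates 2 and 3 differed there too. Replicate 3 goes against its male label: Xist, the RNA that coats the inactive X chromosome, read 8.05, 118 and 61883 in replicates 1, 2 and 3, and the Y-linked Eif2s3y read 4384, 3738 and 37.9. Every direction drawn from replicate 3 carries that limit. The precision of all values is limited by the number of arrays.

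The promoter of Acta2 is shown because this gene names the reporter and was the member that differed most between samples among those above background in all 3. The RefSeq window on build GRCm38.p6 is chr19:34255374-34255623, minus strand, the 250 bases before the annotated start, written 5′ to 3′. Capitals mark CArG-like boxes, defined as CC, then 6 bases of which at least 5 are A or T, then GG, a pattern that is its own reverse complement.

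Acta2: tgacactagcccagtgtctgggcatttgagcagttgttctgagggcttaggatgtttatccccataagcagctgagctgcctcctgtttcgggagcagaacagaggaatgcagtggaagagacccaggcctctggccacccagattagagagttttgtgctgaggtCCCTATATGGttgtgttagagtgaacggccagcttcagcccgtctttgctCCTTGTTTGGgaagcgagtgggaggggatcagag

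The boxes were CCCTATATGG, at -84 to -75 from the start, and CCTTGTTTGG, at -34 to -25. Each has 5 of 6 central bases A or T, so neither is a strict box with all 6. Of all 32851 promoter windows of that length, 8.59% held at least 1 such box, 0.67% held 2 or more and 1.47% held a strict one. Windows were found for 6 members, namely Acta2, Cnn1, Des, Mylk, Synpo2 and Tpm2, and 1 of the 6, Acta2, held a box. No match says only that these letters are not in that window. Boxes were found for 6 of 23 genes of the wider contractile apparatus, 5 of 14 nonmuscle and other relatives and 5 of 17 skeletal muscle genes with a window. These shares stand against 8.59% of all windows and were not tested, and most genes of each list held none. Picked after their boxes were seen, the cardiac and skeletal muscle actins Actc1 and Acta1 held 4 and 3, and Myl9 and Srf held 2 each. Actc1 and Acta1 are counted both among the relatives and among the skeletal muscle genes.

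6 members were above background in 3 of 3 samples, and 4 of them stood well clear of it. Judged by its brightest probe set on average, Acta2, Tpm2, Mylk, Synpo2, Myh11 and Des passed in every sample, or 6 of 10, against 60.5% of all genes (by probe set 12 of 23, against 48% of all probe sets), so the members' share was near that of genes at large. Acta2, Tpm2, Mylk and Synpo2 lay at 10.8 to 72.4 times background. Myh11 and Des lay at 1.06 to 2.41 times background. With background at the 99th percentile of the receptor probe sets, Myh11 and Des dropped out and 4 members remained. Tagln, Actg2 and Myocd were above background in replicate 1 alone, which held for 4.8% of all genes, and Cnn1 was above it in none, which held for 26.8%. Without replicate 3, whose library goes against its label, 6 members were above background in both remaining samples.

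**Figure D1:**
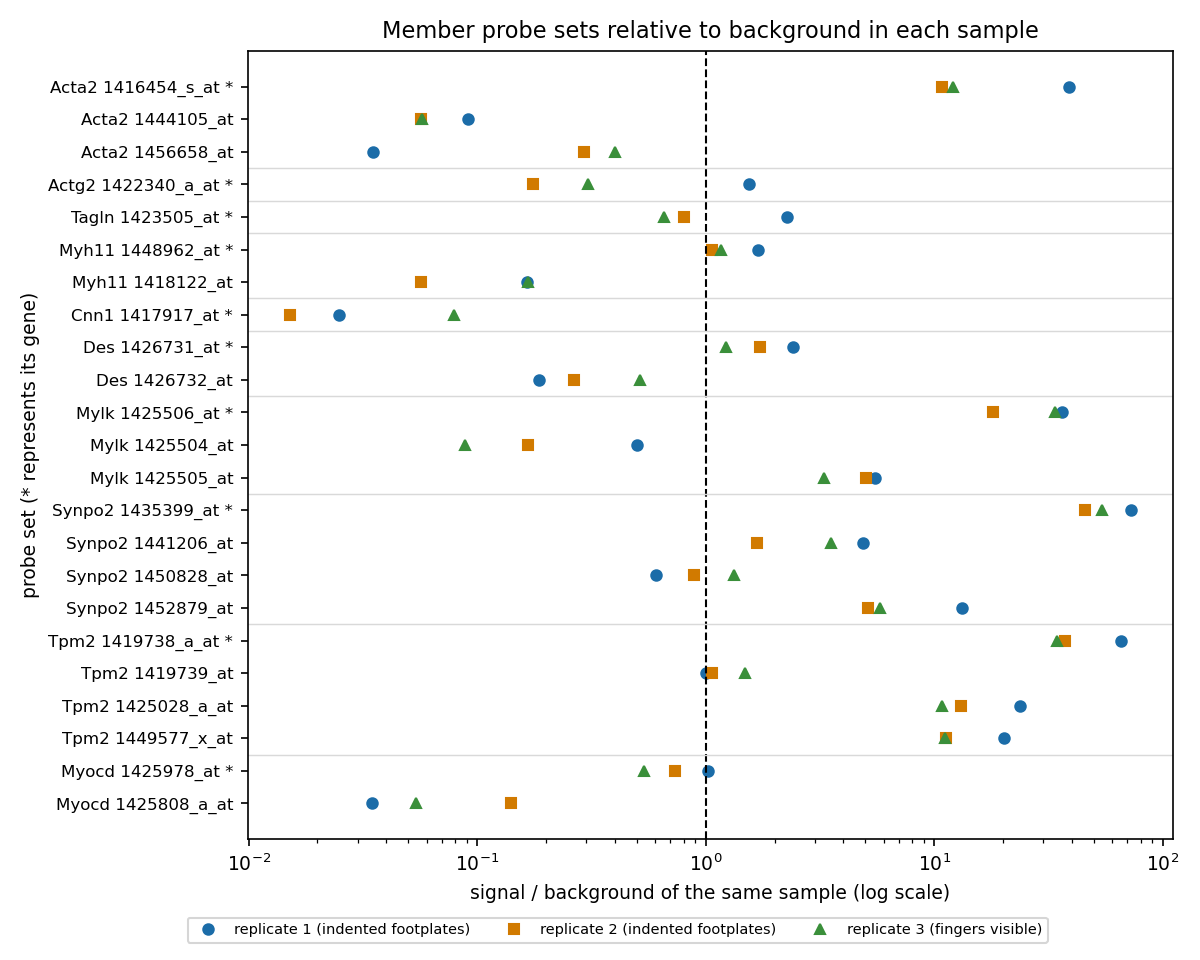
Signal of each of the 23 member probe sets divided by the background of the same sample (log axis), one marker per sample, with the dashed line at background and an asterisk on the probe set that represents its gene. The representative probe sets of Acta2, Mylk, Synpo2 and Tpm2 lie at 10.8 to 72.4 times background in all 3 samples, those of Myh11 and Des at 1.06 to 2.41 times, and that of Cnn1 lies below it throughout.

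Among the thin filament genes, Acta2, the actin that smooth muscle makes first, had signals of 5273, 2736 and 2378 in replicates 1, 2 and 3. Replicate 1 was high and the others lay close together. After the samples were aligned on a common median, Acta2 in replicate 1 was 2.26-fold above replicate 2 and 2.36-fold above replicate 3, which differed from each other by 1.04-fold. Of the genes above background in 3 of 3 samples, 172 (1.56%) were likewise over 2-fold higher in replicate 1 than in each other sample, and 7.72% had a larger SD than the 0.70 of Acta2 on the log2 scale (n = 3). The lead of replicate 1 over the mean of the others was 1.20 on the log2 scale, 1.05 on the signals as deposited and 1.61 when the median over every probe set was used for alignment.

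These values come from 1 of the 3 Acta2 probe sets, 1416454_s_at. In the array maker's naming, the ending _s_at marks probes shared by several transcripts, which may belong to related genes, and the muscle actins are nearly identical in protein sequence. The other 2 probe sets were not above background in any sample, at 12.4, 14.4 and 11.3 for 1444105_at and 4.77, 73.9 and 78.8 for 1456658_at. The level of Acta2 therefore rests on a single probe set. The skeletal muscle actin Acta1 read 1950, 856 and 393, and the cardiac actin Actc1, which embryonic skeletal muscle also makes, read 10655, 3639 and 1201. Both were highest in replicate 1 as well and lowest in replicate 3, whereas Acta2 hardly differed between replicates 2 and 3. The nonmuscle actin Actb read 29515, 78681 and 51493, and after alignment replicate 1 was lowest, 2.28-fold below replicate 2. Actg1, also nonmuscle, read 64769, 75024 and 65171, and its samples lay within 1.06-fold of each other after alignment. Whether signal from these other actins reached the Acta2 probe set was not tested.

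Actg2, the actin of visceral smooth muscle, had signals of 210.2, 44.6 and 60.1. Only replicate 1 was above background, at 1.55 times it, and this put it at least 1.13-fold above replicate 3. No fold against replicate 2 can be given, because the background of that sample lies above the signal of replicate 1 after alignment. Tagln, an actin-binding protein of early smooth muscle, read 307, 204 and 129. Replicate 1, at 2.26 times background, was at least 1.42-fold above replicate 2 and at least 1.65-fold above replicate 3, neither of which was above background.

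Cnn1, or calponin, which restrains the actin-activated myosin motor, was at 3.39, 3.83 and 15.6 and so lay at 0.079 times background or less in every sample. These values have no order. Its relative Cnn2, which is not confined to muscle, read 9842, 9434 and 6655, and Tagln2, the relative of Tagln found in many cell types, read 1923, 925 and 1431. Both relatives were above background in all 3 samples, unlike the smooth muscle gene of each pair. Levels of different probe sets are not compared in size.

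Tpm2, a tropomyosin that lies along the thin filament, read 8932, 9478 and 6823 on its main probe set, or 8411 ± 1402 (SD, n = 3). Replicate 3 was lowest, 1.39-fold below replicate 1 and 1.26-fold below replicate 2 after alignment. Tpm2 was the only member with every probe set, 4 of 4, above background in 3 of 3 samples. Replicate 3 was lowest on 1425028_a_at (3218, 3305 and 2141) and on 1449577_x_at (2738, 2847 and 2190) too. On 1419739_at the signals were 136.4, 270.3 and 292.3, at 1.00, 1.07 and 1.48 times background, and the order was the opposite. The probe sets of Tpm2 therefore disagreed on which sample was high. After alignment replicate 1 was highest and replicate 3 lowest on all but this dim one.

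Of the motor genes, Myh11, the myosin heavy chain that defines mature smooth muscle, read 230.1, 268.4 and 230.7. After alignment the 3 samples lay within 1.06-fold of each other, with an SD of 0.05 on the log2 scale. That SD depended on the alignment. It was 0.13 on the signals as deposited and 0.26 with alignment over every probe set. At 1.06 to 1.69 times background, part of each signal can also be background. Its other probe set, at 22.5, 14.3 and 32.9, was not above background in any sample.

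Mylk read 4939, 4568 and 6640 on its main probe set, or 5383 ± 1105 (SD, n = 3). Replicate 3 was highest, 1.60-fold above replicate 2. On 1425505_at the signals were 744, 1268 and 650, and replicate 2 was highest instead, 1.77-fold above replicate 3. The order of the samples thus turned between these probe sets, and no order can be given for the gene. The third, 1425504_at, stayed below background throughout (68.2, 42.3 and 17.4).

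Synpo2, an actin-bundling protein of Z-discs and dense bodies, had the smallest spread of the main probe sets above background. It read 9828, 11498 and 10651, with an SD of 0.02 on the log2 scale after alignment. The SD was 0.11 on the signals as deposited and 0.24 with alignment over every probe set. The 2 further probe sets above background in 3 of 3 samples spread more, with an SD of 0.50 for 1441206_at (661, 425 and 697) and 0.41 for 1452879_at (1795, 1303 and 1142). The former was lowest in replicate 2 and the latter highest in replicate 1. The fourth, 1450828_at (82.5, 226 and 264), was above background in replicate 3 alone.

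Des, the intermediate filament protein desmin of smooth, skeletal and cardiac muscle and of pericytes, read 327, 439 and 242. Replicate 2 was highest, 1.64-fold above replicate 3. The samples were 2.41, 1.73 and 1.23 times background in the order of the replicates. Its other probe set stayed below background throughout (25.3, 67.0 and 102).

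Myocd, which switches on the contractile genes through Srf, read 138.8, 185.6 and 105.8 on 1425978_at. Replicate 1 was called above background at 1.02 times it, while the signal was highest in replicate 2, which has the highest background. The other probe set, at 4.69, 35.5 and 10.7, was not above background in any sample, so no level of Myocd was distinguished from background here. Srf itself read 2771, 3267 and 2616, with an SD of 0.10 on the log2 scale (n = 3). The coactivators Mrtfa (448.5, 685.5 and 344) and Mrtfb (24544, 23448 and 22806) were above background in every sample too. For Mrtfb this held for 1 of its 3 probe sets. Of the list of Srf and Myocd regulators, 16 of the 18 genes measured passed in 3 of 3 samples, against 60.5% of all genes. The other 2 were Gata4, above it in none, and Tcf21, above it in replicate 2.

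The early genes were set beside the late ones by detection and by how they moved between samples. Of the 3 early genes 1, Acta2, was above background in 3 of 3 samples, and of the 4 late genes 2, Myh11 and Smtn, were, against 60.5% of all genes. Smtn, or smoothelin, a cytoskeletal protein of contractile smooth muscle, read 598, 712 and 346. Lmod1, which nucleates actin filaments, read 107, 195 and 162 and was above background in none. Counts this small do not separate the lists, and with background at the 99th percentile Smtn alone remained of the late genes.

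Between samples, the early genes Acta2 and Tagln had their highest signal in replicate 1, as did the late gene Actg2. The lead of replicate 1 over the mean of the others was measured for Acta2 alone of these, at 1.20 on the log2 scale, since Tagln and Actg2 were not above background in the other samples. Of the late genes above background in 3 of 3, Myh11 differed by 0.04 and Smtn by 0.43 there, against a median of 0.26 over all genes that passed in 3 of 3. No test of early against late genes was made.

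**Figure D2:**
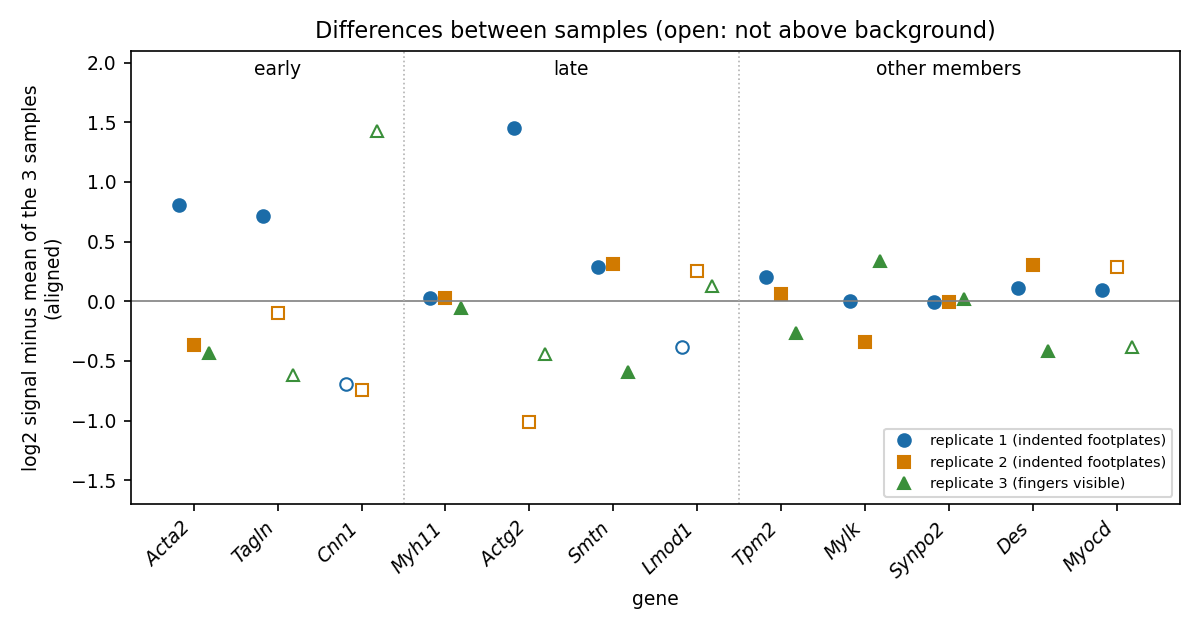
Aligned log2 signal of each sample minus the mean of the 3 samples, for early genes, late genes and the other members, with open markers where a sample was not above background. Replicate 1 is highest for Acta2, Tagln and Actg2, while the samples of Myh11 and Synpo2 lie close together after this alignment.

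The 10 members did not lean towards replicate 1 more than genes in general did. Their median difference there was 0.15 on the log2 scale against 0.21 over all genes measured, and 5 of 10 were highest in replicate 1 against 45.9% of all genes. In replicate 3 the median of the members was -0.49 against 0.01 over all genes, and 6 of 10 were lowest there against 30.6%, but 4 of the 10 were not above background in that sample. Over the 6 members above background in 3 of 3 samples the median was -0.24 against -0.01 over such genes, and 4 were lowest in replicate 3 against 30.4%. No test was made of these counts.

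The wider contractile apparatus, a list of 25 genes of which 24 were measured, had 20 above background in 3 of 3 samples, against 60.5% of all genes. Lmod1, the potassium channel subunit Kcnmb1 and the myosin phosphatase inhibitor Ppp1r14a were above background in none, and Csrp1, a LIM protein of smooth muscle, in replicate 1 alone (259, 162 and 140). Of the 20, 16 were highest in replicate 1 against 55.5% of all genes above background in 3 of 3 samples, and 13 were lowest in replicate 3 against 30.4%. Myl9, the regulatory light chain that Mylk phosphorylates, read 2649, 2020 and 1352, with replicate 1 highest and replicate 3 lowest. Cald1, or caldesmon, an actin-binding protein of smooth muscle and other cells, read 51792, 58591 and 51898, with an SD of 0.04 on the log2 scale. Tpm1, a further tropomyosin, read 3988, 4216 and 2843 and was lowest in replicate 3, as Tpm2 was.

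Markers of other tissues moved between the same samples. Of 21 skeletal muscle genes 18 were highest in replicate 1, against 45.9% of all genes, and 19 lowest in replicate 3, against 30.6%, and 6 were above background in 3 of 3 samples. Their summed signal was 32389, 11169 and 4298 in replicates 1, 2 and 3. The defining factors Myf5 and Myf6 were above background in none, Myod1 was above it in replicates 1 and 3, and Myog in all 3. Liver genes were highest in replicate 1 and lowest in replicate 3 for 6 of 6 measured, with summed signals of 112475, 52054 and 9136. For the 8 cardiac genes 1 was above background in 3 of 3, and the sums were 2995, 1492 and 928. The part of these tissues in the values of Acta2, Tagln, Des and Tpm2 was not tested. In whole tissue, fewer cells of a type and less RNA per cell cannot be told apart.

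Markers of vascular mural cells, which also make Acta2, moved in no one direction. Of 10 pericyte and mural genes 6 were above background in 3 of 3 samples, against 60.5% of all genes. In replicates 1, 2 and 3, 3, 2 and 5 of the 10 were highest, against 8348, 4559 and 5286 of all 18193 genes. The summed signal of the list, most of it from Pdgfrb and Notch3, was 19275, 19450 and 18527. Their median differences from the other samples were 0.17, -0.33 and 0.09 in replicates 1, 2 and 3. The mural receptor Pdgfrb read 11766, 13001 and 10357. After alignment its replicate 1 was highest, 1.06-fold above replicate 2, and replicate 3 was lowest. The pericyte gene Rgs5 read 792, 519 and 526, with replicate 1 highest as for Acta2. Only 1 of its 4 probe sets was above background in 3 of 3 samples. Endothelial genes, with 8 of 10 above background in 3 of 3 samples against 60.5% of all genes, summed to 13100, 13914 and 16060. In replicate 1, 4 of the 10 were highest, against 45.9% of all genes, and 2 were lowest. Another 5 were highest in replicate 3, against 5286 of all 18193 genes. The median difference of the list there was 0.32 against 0.01 over all genes.

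**Figure D3:**
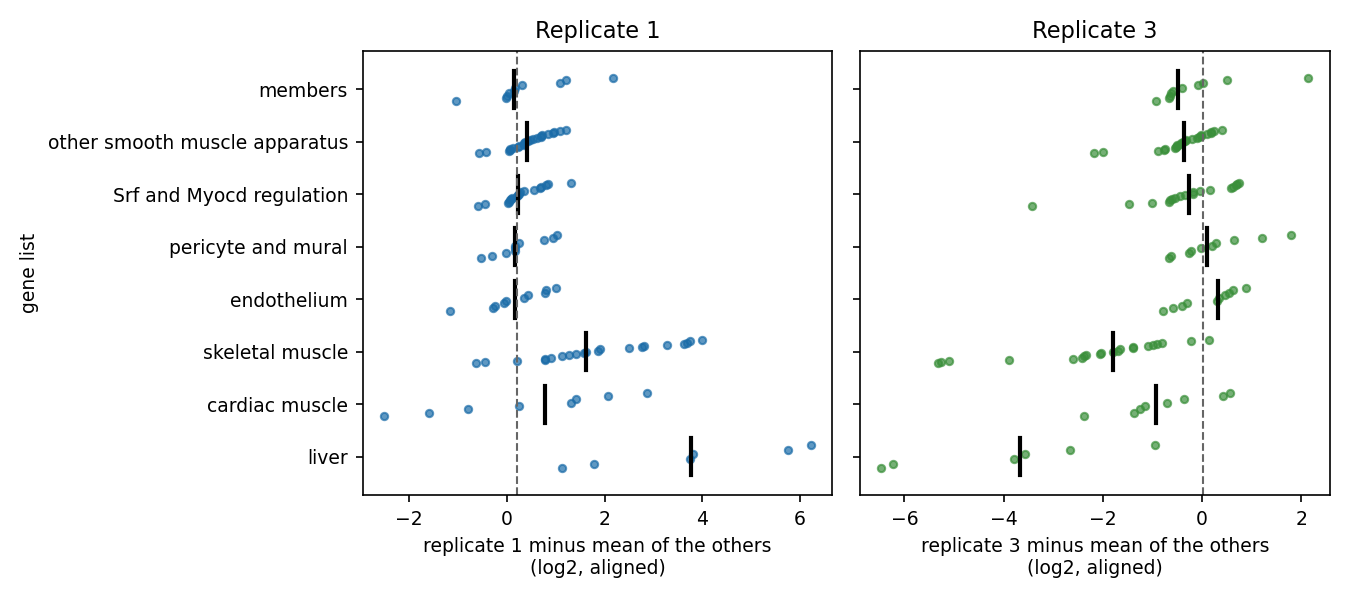
Difference of replicate 1 (left) and of replicate 3 (right) from the mean of the other samples on the aligned log2 scale, one point per gene, with a black bar at the median of each list and a dashed line at the median of all genes measured. The members lie near the dashed line in replicate 1 (0.15 against 0.21) and below it in replicate 3 (-0.49 against 0.01), and the skeletal muscle and liver lists lie far from it in both.

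Genes outside the contractile lists came closest to the pattern of Acta2 over the 3 samples. Likeness was the Euclidean distance between the aligned log2 deviations of a gene and those of Acta2, over 11005 other genes above background in 3 of 3 samples. The nearest were the neuronal gene Stmn2 (distance 0.022), the coatomer gene Copb2 (0.028), the homeobox gene Dlx1 (0.032), Oip5 (0.045) and Prxl2c (0.047). Such likeness rests on only 3 values per gene. Of the 11005 genes, 65 lay within 0.2, among them Fhl1 of the contractile apparatus list (0.19, rank 59). Hspb6 and Myl9 of that list ranked 204 and 563. Of the members above background in 3 of 3 samples, Tpm2 was nearest to Acta2, at 0.76 and rank 3901. No other detected member was thus among the genes nearest to Acta2.

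The landmark was compared last, as the label that differs between samples, with replicate 3 (visible fingers) set against replicates 1 and 2 (indented footplates) in limma. Of the 10 members 9 were above background in at least 1 sample and entered the fit. Among those above background in 3 of 3 samples, Acta2 differed by -0.65 ± 0.79 (log2, SE), Des by -0.62 ± 0.61 and Tpm2 by -0.41 ± 0.60, while Myh11 (-0.08 ± 0.60) and Synpo2 (0.03 ± 0.60) were near 0. The difference of Acta2 was -0.06 without replicate 1 and -1.24 without replicate 2, so its size rests on the high signal of replicate 1. Mylk differed by 0.51 ± 0.62 on its main probe set and by -0.55 ± 0.64 on 1425505_at, so it has no direction. Tagln (-0.93 ± 0.70), Actg2 (-0.66 ± 1.22) and Myocd (-0.58 ± 0.61) were not above background in replicate 3, so their fitted values are not measured sizes. That of Actg2 turned to 0.57 without replicate 1 and was -1.89 without replicate 2. Over probe sets, 11 of 16 fitted for members were negative, with a median of -0.40, against 13451 of all 29065 fitted, with a median of 0.05.

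None of the members passed limma's test, with adjusted p = 1.00 for each after Benjamini-Hochberg adjustment, and 0 had an unadjusted p under 0.05, the lowest being 0.254 for Tagln. Over all probe sets fitted 0 passed (0%), and 604 (2.08%) had an unadjusted p under 0.05. With 1 residual degree of freedom, each SE draws on a variance that limma pools over probe sets, beside the spread of replicates 1 and 2. Myh11 and Synpo2 had the same SE of 0.60, although replicates 1 and 2 lay 1.00-fold apart for both. These SEs are therefore not errors of the single gene. The fit also takes the spread of replicates 1 and 2 to hold for replicate 3. It cannot tell the landmark apart from any other feature of replicate 3, whose library goes against its sex label.

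**Figure D4:**
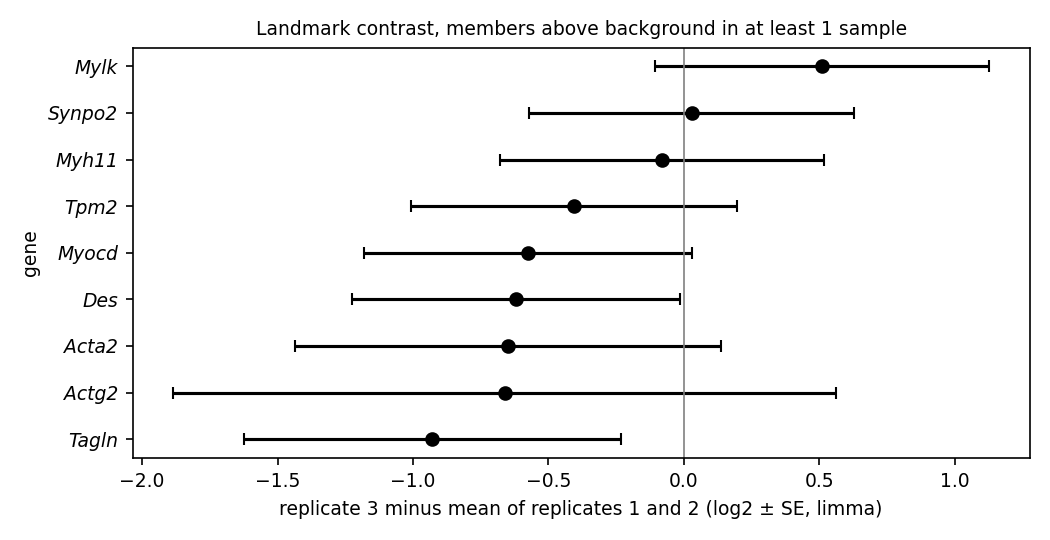
Log2 difference of replicate 3 (visible fingers) from the mean of replicates 1 and 2 (indented footplates), as a point with limma's SE as the bar, for the 9 members above background in at least 1 sample. The points run from -0.93 for Tagln, which was not above background in replicate 3, to 0.51 for Mylk, and none passed the adjusted test.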

How the data were processed

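RNA of 3 genital tubercles was measured on 1 array each. Per the labels, RNA came from a Qiagen RNeasy column, went through 2 rounds of aminoallyl amplification and was labelled with biotin. The deposited values are linear intensities per probe set made by the authors with GCOS, a scanner software named in the submitters' processing notes. Its version is not given in the sources used here. Trimming 2% at each end gave a mean of 1500 for all samples, so the values had been scaled before deposit. Of 45101 probe sets, 64 controls were set aside, 34945 had 1 symbol, 932 several and 9160 none. Entrez identifiers matched 34741 symbols to RefSeq (GRCm38.p6) and 0 changed. The table held 0 columns without a sample.

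Signals below 1 were set to 1, log2 transformed and aligned on the median of probe sets above background in 3 of 3 samples, a shift of 0.105, -0.122 and 0.018 in replicates 1, 2 and 3. Signals are printed as deposited, and folds, differences and SDs of log2 values after alignment. Folds against a sample not above background are lower bounds. The brightest probe set by mean signal stood for each gene. The contrast used limma 3.58.1 (lmFit and eBayes, two-sided, Benjamini-Hochberg, threshold 0.05) in R 4.3.3. Its fitted sizes were checked on simulated data in which all probe sets had 1 common spread, unlike these data. Other work used Python 3.11.15 with pandas 2.3.3. All members are named; of other lists, genes not above background in 3 of 3 samples and a fixed set that includes Srf, Smtn and Myl9, beside a few that a result turned on. The members, the lists and the split into early and late genes were chosen with earlier results of these data known. Alternatives covered the background percentile, alignment, floor, probe set choice, filter, normalization, variance trend and each replicate left out.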

Additional observations from a re-analysis of the deposited data

How the results depend on the processing

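The count of members above background in 3 of 3 samples was 4 to 6 under every alternative run, and 6 with each replicate left out in turn. With background at the 99th percentile, late genes above background fell from 2 to 1, while 1 early gene passed under every alternative. The landmark contrast called 86 probe sets when the median over every probe set was used for alignment and 1 when limited to those passing in 3 of 3 samples, none of them a member, and 0 under the other alternatives run; the cause was not tested. The difference of Synpo2 in that contrast turned from 0.03 to -0.057 with alignment over every probe set and to -0.03 with quantile normalization, all within its SE. Actg2, not above background in replicates 2 and 3, turned from -0.66 to 0.57 without replicate 1, a difference with no test. No other member changed sign there. The median SD of the 6 detected members was 0.29 on the log2 scale, 0.27 without alignment, 0.425 with alignment over every probe set, and 0.12 to 0.29 with a replicate left out. With that alignment the lead of replicate 1, an alternative chosen after seeing the data, was 0.71 for Tpm2, 0.45 for Myh11 and 0.39 for Synpo2. Without alignment it was -0.11 for Myh11 and -0.17 for Synpo2. For Mylk and Myocd it was -0.16 and -0.01 without alignment, and 0.40 and 0.545 with alignment over every probe set. Myh11, Synpo2, Mylk and Myocd thus have no settled direction there. On its main probe set Tpm2 stayed positive, at 0.31 after the main alignment and 0.15 without alignment. No paired analysis was possible because the samples form 1 group. Signal over background limits Myh11, Des, Tagln, Actg2 and Myocd, and nothing can be said of changes in Cnn1.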
